A study of Mus musculus with 16 samples.

Results

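Whole brains of mice lacking both Grn and Trem2 were compared with brains of mice lacking Trem2 alone, a contrast that measures the loss of progranulin where TREM2 is already absent. The double knockout group (genotype label Grn/Trem2 double knockout) and the Trem2 knockout group held 4 animals each, so that 8 of the 16 animals of the series were compared, chosen by genotype label. All were female, all were aged 6 months, and both groups lacked Trem2. The other 8 animals, 4 wild type and 4 Grn knockout, entered the fit that estimates the spread and gave the same contrast in animals that carry Trem2. The sources used here do not give strain, how the alleles were made, litters, cartridge or run day. Total RNA was read with a panel of 770 neuropathology genes on a digital counting platform (nCounter), in which barcoded probes bound to transcripts are counted one by one without amplification. Of these genes 708 averaged at least 20 across the 16 animals and were tested, and 62 were not. The values are normalized counts, scaled to a set of reference genes, and a value with ± is a mean and SD of the 4 animals of a group.

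Progranulin, the product of Grn, is a secreted glycoprotein that is taken up into lysosomes and cleaved there into granulin peptides. In brain it is made by microglia and neurons, and its loss is known for lysosomal storage and for microglia that become strongly activated. TREM2 is a lipid-sensing receptor of microglia that signals through the adaptor TYROBP and drives the transition of resident microglia into a phagocytic, lipid-handling state. The comparison therefore addresses which part of the response to progranulin loss can still be measured in whole brain where TREM2 is absent.

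Cd68 and C1qb rose in the double knockout, and Grn was lost. Cd68, a heavily glycosylated protein of late endosomes and lysosomes in phagocytes, was 1.56-fold higher, and C1qb, a chain of C1q, the initiator of classical complement activation, was 1.40-fold higher. These 2 genes and Grn were the 3 of 708 tested genes past an adjusted p of 0.05 in limma, a linear model with moderated variances (0.424% of the genes tested, 0.282% on the higher side). Of 9 tested genes of resident microglia 0 passed and 7 lay above 0, from -0.03 for Tmem119 to 0.61 for Fcrls, with a median of 0.07. Without an adjustment 39 genes had p under 0.05 (5.51%), 21 on the higher side (2.97%) and 18 on the lower (2.54%), where 35.4 would be expected if no gene differed. All differences are of log2(value + 1), which understates changes of weak genes.

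Grn and Trem2 were low where the labels say so. Grn measured 544.39, 609.9, 580.16 and 620.09 in the 4 Trem2 knockout animals and 23.09, 14.51, 12.5 and 17.66 in the double knockouts. Each double knockout animal lay below its background threshold, the mean plus 2 SD of its 8 negative control probes, so Grn was at least 21.1-fold lower against that threshold (limma adjusted p = 3.49e-11). Trem2 measured 35.4, 10.18, 8.69 and 14.76 in Trem2 knockouts and 5.02, 17.41, 13.46 and 20.38 in the double knockout, against 143 ± 13.2 in wild type. Trem2 knockout replicate 1 was above its background threshold of 26.4, and the other 7 of these animals were below theirs.

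**Figure D1:**
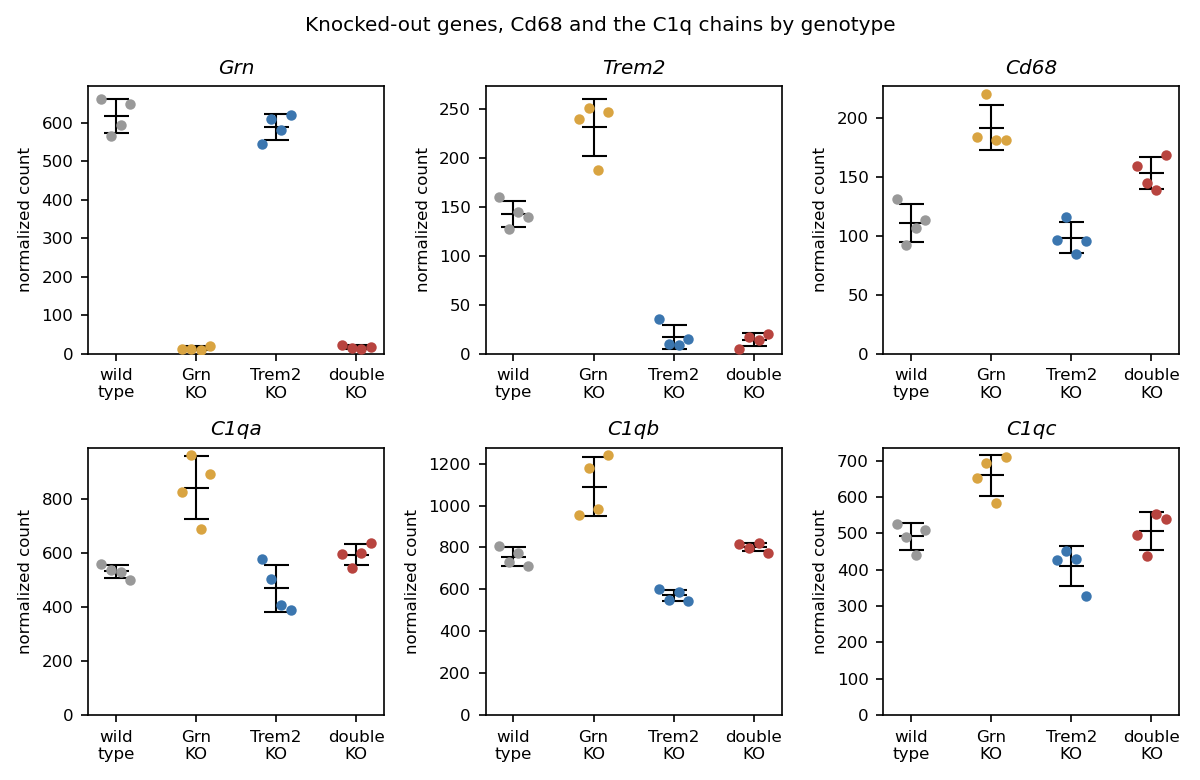
Normalized count (vertical axes, from 0) of the knocked-out genes, Cd68 and the 3 C1q chains in the 16 animals, by genotype (KO, knockout). Each point is an animal and bars give the mean and SD of 4. For Cd68 and C1qb every double knockout animal lies above every Trem2 knockout animal, with C1qb at 774.33 to 819.29 against 545.21 to 599.32.

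Depth overlapped between the groups. Each Trem2 knockout animal gave 552462 to 673309 panel counts and each double knockout animal 528008 to 730848 (two-sided exact permutation p = 0.514, where 4 against 4 animals allow no p below 0.0286). Negative control probes gave means of 10.6 to 14.1 counts in the Trem2 knockout animals and 12.4 to 15.4 in the double knockouts (two-sided exact permutation p = 0.486). In that order, 672 to 691 and 659 to 682 genes lay above the background threshold. Double knockout replicate 4 had the fewest counts (528008), a scaling factor of 1.36 and a background threshold of 36.1. That threshold was 22.7 to 26.4 in the other animals compared. Markers of neurons, astrocytes, oligodendrocytes and microglia were present at the levels given below, while no gene of a choroid plexus list is among the panel genes.

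The start regions of the genes that rose, and of the neighbouring chain gene C1qc, are shown because Cd68 and C1qb are the genes called higher, and C1qc did not pass. C1qb and C1qc lie on the same strand of chromosome 4 and Cd68 on chromosome 11. The sequences are RefSeq windows of build GRCm38.p6, from 250 bases before to 50 after the annotated start, at chr4:136886151-136886450 (minus strand), chr4:136892865-136893164 (minus strand) and chr11:69666121-69666420 (minus strand). Capitals mark GAGGAA or its reverse complement TTCCTC, the core of the site read by PU.1, the transcription factor that defines the myeloid lineage.
C1qb: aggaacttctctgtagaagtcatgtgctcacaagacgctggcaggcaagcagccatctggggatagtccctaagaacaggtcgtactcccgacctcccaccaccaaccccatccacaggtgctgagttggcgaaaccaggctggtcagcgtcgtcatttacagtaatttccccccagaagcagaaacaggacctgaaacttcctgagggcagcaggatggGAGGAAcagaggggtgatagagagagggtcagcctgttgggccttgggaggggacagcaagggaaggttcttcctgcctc
C1qc: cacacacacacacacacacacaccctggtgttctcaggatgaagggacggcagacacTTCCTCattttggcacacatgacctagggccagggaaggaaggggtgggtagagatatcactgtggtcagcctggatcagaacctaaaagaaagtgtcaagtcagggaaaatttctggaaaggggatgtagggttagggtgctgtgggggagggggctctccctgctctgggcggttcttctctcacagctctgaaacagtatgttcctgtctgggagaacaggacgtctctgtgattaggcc
Cd68: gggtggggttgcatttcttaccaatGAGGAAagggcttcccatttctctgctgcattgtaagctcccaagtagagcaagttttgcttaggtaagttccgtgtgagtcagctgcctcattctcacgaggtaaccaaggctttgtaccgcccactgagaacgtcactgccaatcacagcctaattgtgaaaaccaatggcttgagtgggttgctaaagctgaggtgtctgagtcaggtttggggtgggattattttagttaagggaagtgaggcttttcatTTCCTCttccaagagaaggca
The core stands once in the C1qb and C1qc windows and at 2 places in the Cd68 window. Of all 32851 windows of this length, 28.3% hold it on either strand, so its presence is a description of these sequences. CACGTG, the core shared by E-boxes and by the element of lysosomal genes read by TFEB, is in none of the 3 windows and in 7.15% of all. A window of C1qa is not shown.

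Cd68 measured 96.43, 116.07, 84.74 and 95.97 in the Trem2 knockout animals and 159.62, 145.11, 138.47 and 168.45 in the double knockouts. The lowest double knockout animal lay above the highest Trem2 knockout animal. The log2 difference was 0.64 (SE 0.12, 95% confidence interval 0.39 to 0.88, limma adjusted p = 0.0142). Cd68 passed under 9 of 11 other settings and in 11 of 16 fits that each left out 1 animal, with log2 differences of 0.57 to 0.72. It missed the threshold with only these 2 genotypes in the fit (adjusted p = 0.0537) and without Trem2 knockout replicate 1 (0.0573), replicate 3 (0.0621) or replicate 4 (0.0577), or double knockout replicate 1 (0.0681) or replicate 4 (0.0767).

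The C1q chains, which microglia make in brain, assemble as A, B and C chains into the pattern-recognition molecule C1q. Their group means were higher in the double knockout, with only C1qb past the threshold. C1qb measured 599.32, 550.84, 588.85 and 545.21 in Trem2 knockouts and 817.19, 797.15, 819.29 and 774.33 in the double knockout. The groups stood apart by more than the range within either. The log2 difference was 0.49 (SE 0.08, 95% confidence interval 0.31 to 0.67, limma adjusted p = 0.00998). C1qb kept its call in 15 of 16 fits without 1 animal and missed it without Trem2 knockout replicate 4 (log2 difference 0.47, adjusted p = 0.0516).

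C1qa measured 578.57, 504.01, 409.59 and 389.14 in Trem2 knockouts and 598.34, 543.69, 600.05 and 637.12 in the double knockout, so that the groups overlapped (log2 difference 0.35, SE 0.12, limma adjusted p = 0.793). C1qc measured 427.22, 451.06, 430.23 and 327.97 against 494.93, 438.24, 552.93 and 539.31, also with overlap (0.31, SE 0.11, limma adjusted p = 0.793). For both chains Trem2 knockout replicate 4 was the lowest of the 8 animals. Whether the chains differ among themselves in their response was not tested.

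The complement genes C3 and C4a gave weak signals, and neither they nor Itgam passed. C3, the central component cleaved by the classical pathway, measured 40.9 ± 7.10 in Trem2 knockouts and 32.8 ± 10.3 in the double knockout (log2 difference -0.34). Of these animals only double knockout replicate 3 was below its background threshold for C3 (22.12 against 22.7). C4a measured 22.5 ± 8.44 and 28.5 ± 8.15, with 1 and 3 animals above the background threshold. Itgam, a chain of complement receptor 3, measured 107 ± 17.3 and 112 ± 10.4. In the complement list 5 of 6 tested members lay above 0 with a median of 0.33, where 55.4% of all 708 genes lay above 0 with a median of 0.01. The list held 1 called gene and 3 with an unadjusted p under 0.05 (the C1q chains), against 5.51% of all genes at that level. The summed level of its 7 panel members was 1431 to 1825 in Trem2 knockouts and 1953 to 2168 in the double knockout. The 3 C1q chains make up most of that sum, so it largely repeats their values given above.

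Scaling to the positive control probes in place of the reference genes moved the median of all genes by 0.15. Relative to that shift the log2 differences were 0.64 for Cd68 and 0.49 for C1qb, but neither passed (limma adjusted p = 0.949 for both), and the genes past the threshold were then Grn, Npas4 and Prl. In that fit Cd68, C1qb, Npas4 and Prl all had an SE of 0.32, so that none of these results rests on a gene's own spread. Directions throughout are relative to the reference genes.

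**Figure D2:**
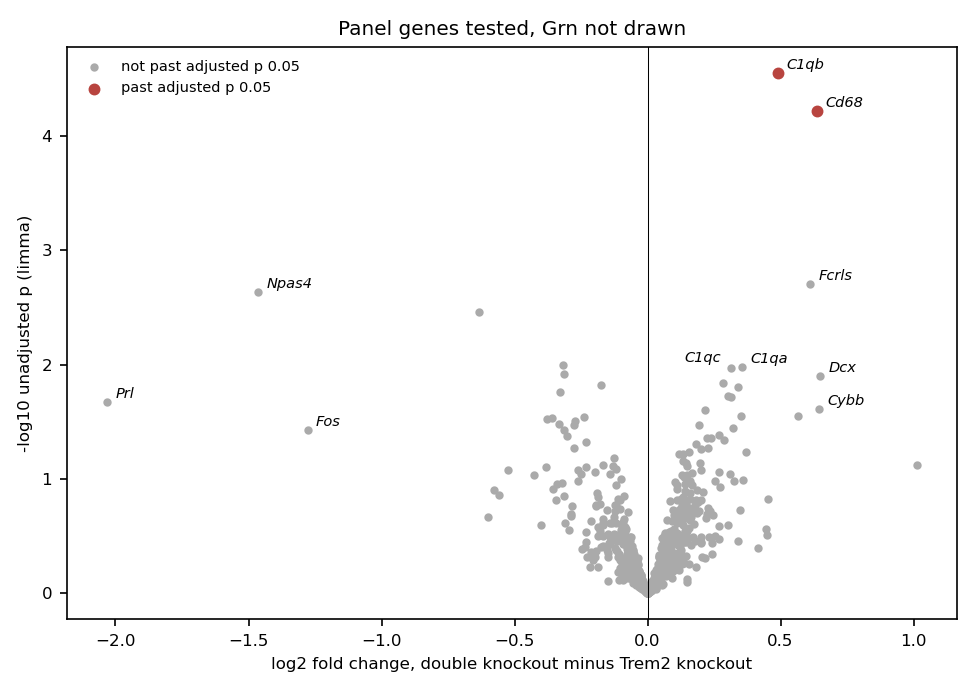
Log2 fold change of the double knockout against the Trem2 knockout (horizontal axis) and −log10 of the unadjusted limma p (vertical axis) for the tested genes without Grn. C1qb and Cd68 stand above the other genes, and Npas4, Fos and Prl lie farthest to the left.

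Genes that mark resident microglia gave 0 calls, where 0.424% of all 708 tested genes passed. At that share 0 calls say little about a list of this size, here and for the lists below. P2ry12, a purinergic receptor that steers microglial processes, measured 185.53, 166.98, 127.11 and 125.49 in Trem2 knockouts and 170.67, 149.95, 129.82 and 163.02 in the double knockout (log2 difference 0.03, 95% confidence interval -0.26 to 0.33). Cx3cr1, the fractalkine receptor, measured 478 ± 73.7 and 477 ± 25.1 (0.01, -0.24 to 0.26). Csf1r, the receptor for the survival factor CSF1, measured 517 ± 51.0 and 513 ± 91.6 (-0.03, -0.29 to 0.24), and Tmem119 161 ± 12.4 and 159 ± 23.6 (-0.03, -0.31 to 0.26). The intervals of these 4 genes reach 0.24 to 0.33 on the higher side and do not show equal levels. In bulk tissue fewer cells of a type and less RNA per cell cannot be told apart.

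Fcrls, an Fc receptor-like scavenger receptor of mouse microglia, came nearest to the threshold of the genes that missed it on the higher side. It measured 86.66, 104.87, 128.2 and 107.57 in Trem2 knockouts and 136.53, 152.85, 156.74 and 210.56 in the double knockout. The groups did not overlap, and the log2 difference of 0.61 (SE 0.16) did not pass (limma adjusted p = 0.329). Cd33, a sialic acid-binding inhibitory lectin, measured 36.7 ± 2.23 and 47.3 ± 4.61, without overlap (0.35, limma adjusted p = 0.820). In the homeostatic microglia list 7 of 9 tested members lay above 0 (median 0.07), 0 passed, and Fcrls and Cd33 were the 2 without overlap. Groups without overlap were found for 28 of 708 genes (3.95%), 16 on the higher side (2.26%) and 12 on the lower (1.69%).

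Activated microglia genes gave 1 call, Cd68. Of 10 tested members 8 lay above 0, with a median of 0.10. Without Trem2 knockout replicate 2 these were 5 and 0.04, and the median was 0.19 without replicate 1 and 0.17 without replicate 4 of that group. Cd9, a tetraspanin, measured 692 ± 22.3 and 800.1 ± 96.6, without overlap (0.20, limma adjusted p = 0.922). Apoe, the main lipid carrier of brain and a gene that TREM2-dependent microglia induce, measured 3967 ± 529 and 4233 ± 160.3 (0.10, limma adjusted p = 0.967). Cybb, the catalytic subunit of the phagocyte oxidase, had 0.64 without overlap (14.2 ± 2.96 and 22.7 ± 4.13), with all 8 animals below their background thresholds.

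**Figure D3:**
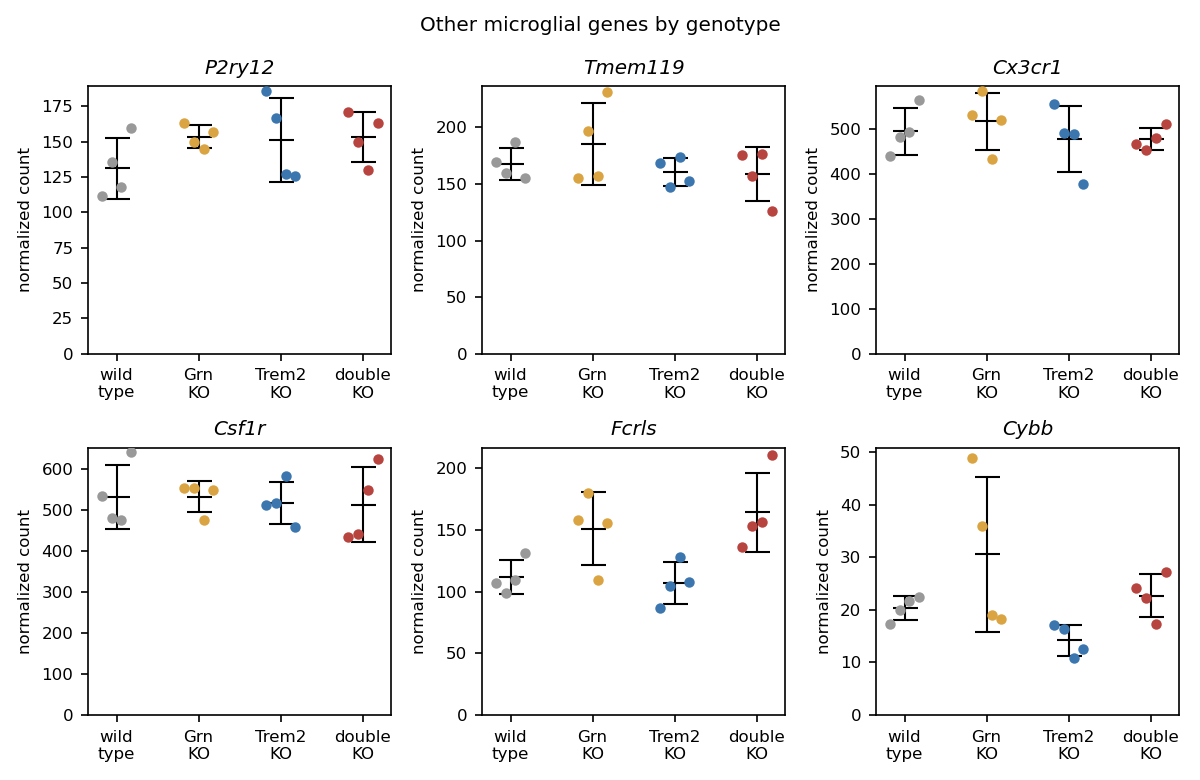
Normalized count (vertical axes, from 0) of 6 further microglial genes in the 16 animals, by genotype (KO, knockout), with points, means and SD as before. P2ry12, Tmem119, Cx3cr1 and Csf1r overlap between the Trem2 knockout and the double knockout, while Fcrls does not (86.66 to 128.2 against 136.53 to 210.56).

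Lysosomal hydrolases, the acid enzymes that degrade sugars, lipids and proteins, all had small positive differences, and 0 of 9 passed (0.424% of all genes). The median was 0.14, and the range ran from 0.03 to 0.34. Gusb, beta-glucuronidase, measured 107.41, 89.6, 84.74 and 98.07 in Trem2 knockouts and 105.41, 118.99, 120.2 and 137.21 in the double knockout (log2 difference 0.34, SE 0.12, limma adjusted p = 0.793). Man2b1, lysosomal alpha-mannosidase, measured 298 ± 31.8 and 347 ± 35.7 (0.22, limma adjusted p = 0.820). Gaa, the enzyme of glycogen breakdown, measured 2142 ± 142 and 2377 ± 186 (0.15). The summed level of the 10 hydrolases on the panel was 5214 to 5518 in Trem2 knockouts and 5756 to 6258 in the double knockout. Gaa makes up a large part of that sum, and 0 of the 9 tested hydrolases had groups without overlap (3.95% of all genes). Without Trem2 knockout replicate 4 the number above 0 was 6 of 9 and the median 0.08.

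Other lysosomal genes gave a mixed picture apart from Cd68. Of 13 tested genes for lysosomal membrane proteins, transport and cofactors, 9 lay above 0 (median 0.04), with Cd68 the 1 call. Npc2, which carries cholesterol out of the lysosomal lumen, measured 51.2 ± 10.1 and 63.8 ± 12.4 (0.31, limma adjusted p = 0.949), and Npc1, its membrane partner, 642 ± 50.8 and 621 ± 37.3 (-0.05). Lamp1, the abundant lysosomal membrane glycoprotein, measured 2844 ± 87.3 and 3012 ± 72.1 (0.08). Among 9 subunits of the vacuolar proton pump that acidifies lysosomes, 7 lay above 0 (median 0.07) and 0 passed, with Atp6v1e1 at 0.14 and Atp6v0d1 at 0.11. Autophagy genes had a median of 0.00 (4 of 7 above 0, 0 called), with the receptor gene Optn at 0.18 and Ubqln1, a ubiquitin-binding shuttle, at -0.13.

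**Figure D4:**
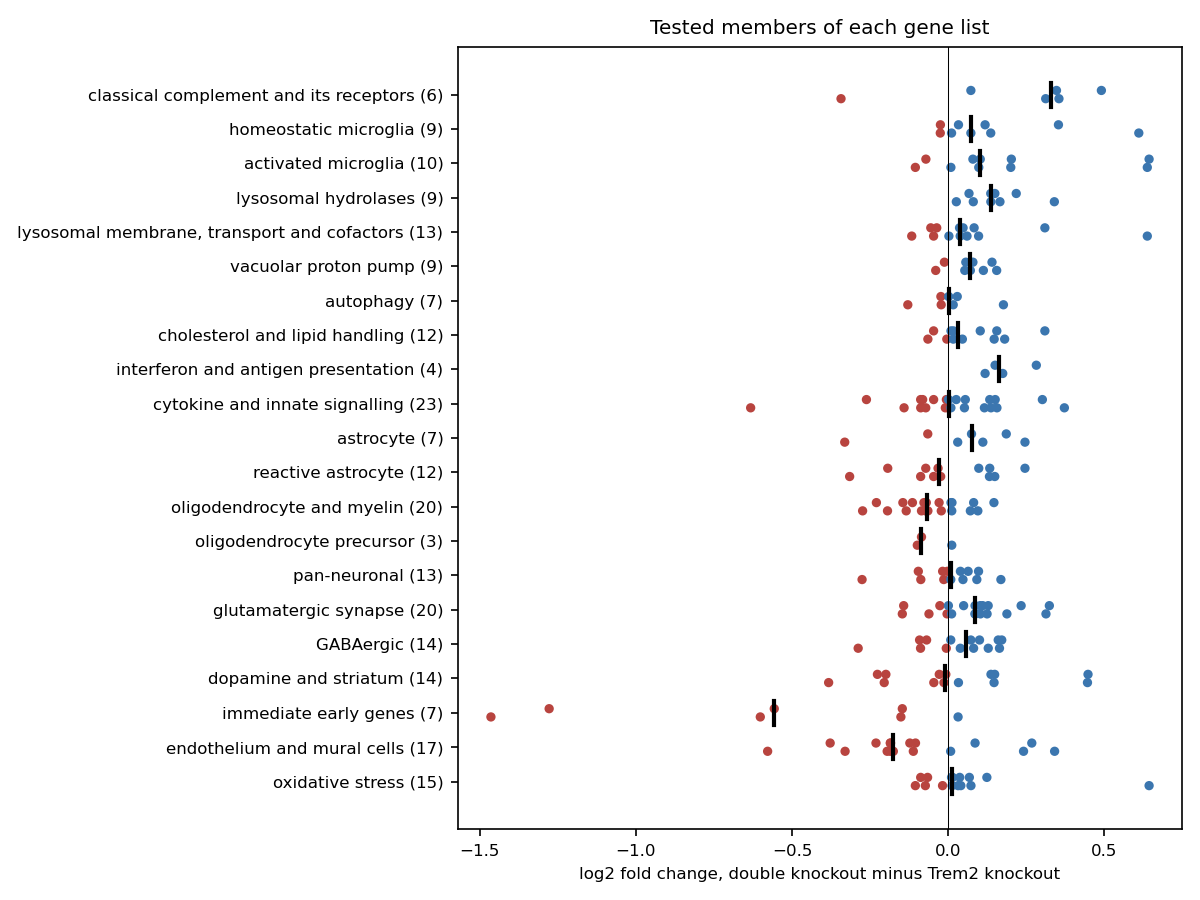
Log2 fold change of the double knockout against the Trem2 knockout (horizontal axis) for each tested member of the gene lists with at least 3 of them (rows, number of genes in brackets). Points are genes, blue at or above 0 and red below, and black bars are medians. The complement list has a median of 0.33, the hydrolases 0.14 and the immediate early genes -0.56.

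Immediate early genes, which neurons transcribe within minutes of activity, were on the low side with 0 calls (0.424% of all genes). Npas4, a transcription factor gene of active neurons, measured 202.62, 378.77, 98.87 and 196.15 in Trem2 knockouts and 52.2, 53.21, 91.35 and 97.81 in the double knockout. The highest double knockout animal lay just below the lowest Trem2 knockout animal, and the log2 difference of -1.46 (SE 0.40) did not pass (limma adjusted p = 0.329). Fos measured 284.4, 690.34, 261.83 and 580.01 against 76.3, 249.59, 293.29 and 152.15, with overlap (-1.28, SE 0.56, limma adjusted p = 0.835). Egr1 had -0.56 and spread from 481.88 to 1385 within the double knockout. Of 7 tested members 6 lay below 0, with a median of -0.56 that ran from -0.76 to -0.26 when each of the 8 animals was left out, the smallest without double knockout replicate 1. The summed level of the 8 panel members was 3857 to 4158 in Trem2 knockouts and 2002 to 3795 in the double knockout. Egr1 alone gave 1176.02 to 1482.72 of that sum in Trem2 knockouts and 481.88 to 1385 in the double knockout. The sources used here do not say how the animals were handled before death, and its part in these values was not tested.

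Genes of neurons and synapses showed 0 calls, against 0.424% of all tested genes. The glutamatergic synapse list had 15 of 20 members above 0 (median 0.09, and 0.03 without double knockout replicate 4, 0.05 without Trem2 knockout replicate 1 and 0.04 with weights for animals), led by the NMDA receptor subunit genes Grin2a (303 ± 35.9 and 377 ± 41.9, 0.31, limma adjusted p = 0.800) and Grin2b (0.32, limma adjusted p = 0.949). GABAergic genes had 9 of 14 above 0 (median 0.06), with the synthetic enzyme gene Gad1 at 0.16 and the calcium buffer gene Calb1 at -0.29 without overlap. Pan-neuronal genes had a median of 0.01 (7 of 13 above 0), with the dendritic Map2 at 0.17 and the deubiquitinase gene Uchl1 at -0.28. Uchl1 was the 1 member of that list with an unadjusted limma p under 0.05, and had -0.17 without double knockout replicate 3. Dopamine and striatum genes had a median of -0.01 (6 of 14 above 0). Dcx, a microtubule protein of migrating young neurons, measured 81.78, 130.33, 124.94 and 102.29 against 171.67, 207.03, 150.01 and 156.22, without overlap (0.65, SE 0.23, limma adjusted p = 0.793).

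Glial and vascular lists had 0 calls, against 0.424% of all tested genes. Myelin and oligodendrocyte genes had 13 of 20 members below 0 (median -0.07), with Gsn, an actin-severing protein, at -0.27, the proteolipid gene Mal at -0.23, Mog at -0.11, Mag at -0.07 and Mbp at -0.03. The other 7 members lay above 0, at up to 0.15. Of 3 precursor genes 2 lay below 0 (median -0.09). Astrocyte genes had a median of 0.07 (5 of 7 above 0) and reactive astrocyte genes -0.03 (5 of 12 above 0). Gfap, the intermediate filament of astrocytes, measured 781.19, 581.39, 752.9 and 437.65 against 905.54, 690.74, 695.25 and 680.59 (0.25, limma adjusted p = 0.967). The folate enzyme gene Aldh1l1 had 0.19, Gdpd2 -0.33 and the small heat shock protein gene Hspb1 -0.32.

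Endothelial and mural cell genes lay below 0 in 12 of 17 cases, with a median of -0.18. The other 5 lay above 0, at up to 0.34, and the genes named here are from the lower side. Leaving out each of the 8 animals gave medians from -0.26 without Trem2 knockout replicate 4 to -0.09 without Trem2 knockout replicate 2. Slc2a1, the glucose transporter of the blood-brain barrier, measured 262.43, 258.62, 294.43 and 255.21 in Trem2 knockouts and 221.87, 222.51, 210.59 and 195.62 in the double knockout. All double knockout animals were lower, and the log2 difference of -0.33 (SE 0.12) did not pass (limma adjusted p = 0.800). Flt1, a receptor for VEGF, had -0.38 (limma adjusted p = 0.820), Tie1 -0.20, Esam -0.19 and Icam2 -0.58, each with overlap. Icam2 was 8.15 and below background in double knockout replicate 4, and 29.81 to 38.15 in the other 3, and its difference without that animal was -0.09.

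The remaining immune, lipid, oxidative stress and blood lists also gave 0 calls, against 0.424% of all tested genes. Some of their genes, such as Irf8, Tlr2, Apoe and Cybb, are also in the microglial lists. All 4 tested interferon and antigen presentation genes lay above 0 (median 0.16, but 3 of 4 and 0.07 without double knockout replicate 4), with the immunoproteasome gene Psmb8 at 61.0 ± 5.02 and 74.4 ± 7.58 (0.28, limma adjusted p = 0.793) and Psmb9 at 0.17. Cytokine and innate signalling genes had 12 of 23 above 0 (median 0.00). Casp1, the inflammatory caspase, had 0.37. Lipid handling genes had 9 of 12 above 0 (median 0.03), with the endocytic receptor Lrp1 at 0.18 and Sgpl1, which degrades sphingosine phosphate, at 0.16. Oxidative stress genes had 10 of 15 above 0 (median 0.01), with Hmox1 at 0.12. Of the blood and leukocyte list 2 genes were tested, Cd4 of T cells and myeloid cells at -0.25 and the monocyte receptor gene Ccr2 at 0.05.

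The effect of Grn loss was next set against the same effect in animals that carry Trem2, the Grn knockout against wild type, a comparison that shares no animal with the first and that called 4 genes (0.565%), Cd68, C1qb, C1qa and Grn. Cd68 had log2 differences of 0.64 without Trem2 and 0.79 with it, C1qb 0.49 and 0.52, C1qc 0.31 and 0.42, C1qa 0.35 and 0.65, and Fcrls 0.61 and 0.41. The test of the difference between the effects (the interaction) called 0 of 708 genes with limma (0.0%), while 24 had an unadjusted p under 0.05 (3.39%), and voom, a count-weighted form of limma added after seeing the data, called 0 with 21 at that level. The interaction was -0.16 for Cd68 (95% confidence interval -0.50 to 0.19), -0.03 for C1qb (-0.28 to 0.22), -0.11 for C1qc (-0.44 to 0.21), -0.30 for C1qa (-0.66 to 0.07) and 0.20 for Fcrls (-0.30 to 0.69). None of these intervals excludes 0, and they do not show equal effects.

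The levels of all 4 genotypes are given without a test between them. C1qb averaged 571 in the Trem2 knockout, 756 in wild type, 802 in the double knockout and 1090.3 in the Grn knockout, and Cd68 98.3, 111, 153 and 192 in that order. Over the 706 genes other than Grn and Trem2 the sign was the same in both comparisons for 343 (48.6%), and for 23 of the 38 with an unadjusted p under 0.05 in the double knockout comparison (60.5%). Genes are not independent replicates, and these shares are descriptions. Npas4 had -1.46 without Trem2 and -0.41 with it (interaction -1.05, 95% confidence interval -2.26 to 0.15).

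**Figure D5:**
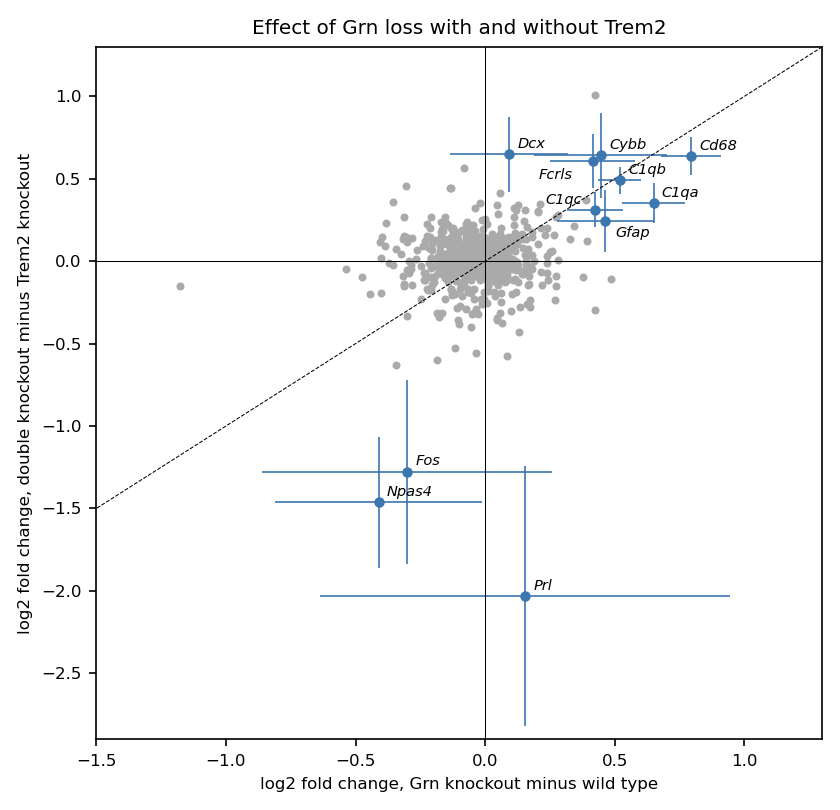
Log2 fold change of Grn loss in animals with Trem2 (horizontal axis, Grn knockout against wild type) and without it (vertical axis, double knockout against Trem2 knockout) for 706 genes. Blue points with bars of SE are named genes, and the dashed line marks equal effects. Cd68, the C1q chains, Fcrls and Cybb lie in the upper right, while Npas4, Fos and Prl lie far below 0 on the vertical axis.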

How the data were processed

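The deposited table gives a normalized signal per probe; software and normalization have no description in the labels. Per the values, each deposited gene signal is a whole count times a factor of that animal (0.907 to 1.36): at least 99.7% of an animal's values fall on whole counts within 0.0075, and 10 reference genes share an equal geometric mean across animals. Background was not subtracted. Every one of 24 within-group pairs of animals exceeded sampling noise (chi-square over degrees of freedom from 3.35 to 15.4). The 708 genes averaging 20 or more across the 16 animals entered limma 3.58.1 (R 4.3.3) as log2 of the value plus 1, as 4 group means, which left 12 residual degrees of freedom. P-values are two-sided and were adjusted by Benjamini-Hochberg over those genes, with a threshold of 0.05. The fit was tested on simulated data. P-values reflect the spread between these animals, and no batch could be included. Named genes are Grn and Trem2, called genes, 15 in each direction and up to 3 in each list by smallest p, and a fixed set; the text gives a part. The comparison, its lists and its tests were chosen with earlier results of these data known. Symbols were matched to RefSeq (763 directly, 7 through synonyms). Other settings tried were the pseudocount, the filter, a background floor, the scaling, variance options, animal weights, the genotypes in the fit, voom, and each animal left out. Some results are not reported here.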

Additional observations from a re-analysis of the deposited data

Results flagged for a closer look

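In 7 of 150 groups of 4 animals examined for the 75 genes considered, 1 animal stood apart from the other 3 by more than Dixon's 95% critical value for the gap over the range. Chance gives about 1 in 20 such groups. Cd33 was 40.07 in Trem2 knockout replicate 4 and 35.4 to 35.85 in the other 3. Npc1 was 565.21 in double knockout replicate 1 and 637.12 to 643.32 in the others. Gfap in that same animal was 905.54 against 680.59 to 695.25. Flt1 was 69.24 in double knockout replicate 3 against 97.71 to 102.4. Mbp was 2037.7 in double knockout replicate 4 against 3224.41 to 3413.72. Uchl1, a neuronal deubiquitinase gene, was 31.64 in Trem2 knockout replicate 4 against 35.85 to 36.66. Sgpl1 was 221.97 in Trem2 knockout replicate 2 against 247.79 to 252.04.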

How the results depend on the processing

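The number of called genes was 3 under 10 of 11 other settings and 2 with only these 2 genotypes in the fit. It ran from 1 to 3 when each of 16 animals was left out, with 1 (Grn) without Trem2 knockout replicate 4. The interaction had 1 called gene (Prl) when counts were scaled to the positive controls and 0 under the other settings and without each animal. That scaling shifted the median over all genes by 0.15, and the median interaction by -0.20. It is also the fit in which Cd68, C1qb, Npas4 and Prl had the same SE, as given above. Log2 differences under that scaling were counted relative to the shift of 0.15, so their signs as fitted were not compared. Counted so, of 814 log2 differences under other settings 805 kept direction and side of the threshold, 3 lost the call, 2 gained it and 4 changed sign. Those 4 were Trem2 at 0.060 with quantile normalization and, with weights for animals, Tmem119 at 0.0027, Cx3cr1 at -0.033 and Mbp at 0.061; the Fcrls interaction was -0.051 with those weights. With each animal left out, differences near 0 changed sign: Trem2 ran from -0.45 to 0.19, P2ry12 from -0.050 to 0.14, Tmem119 from -0.081 to 0.080, Cx3cr1 from -0.098 to 0.088, Csf1r from -0.13 to 0.048, Mbp from -0.12 to 0.15 and the C1qb interaction from -0.090 to 0.036. Without each of the 8 animals the medians of the autophagy, cytokine, reactive astrocyte, pan-neuronal, dopamine and oxidative stress lists also changed sign, and those of other lists near 0 moved by over 1.5 times: homeostatic microglia from 0.02 to 0.14, lysosomal membrane from 0.0048 to 0.07, proton pump from 0.06 to 0.11, lipid handling from 0.03 to 0.09, astrocyte from 0.02 to 0.10, oligodendrocyte from -0.11 to -0.02, its precursor from -0.16 to -0.0037 and GABAergic from 0.02 to 0.09. The causes were not tested. The planned edgeR and DESeq2 tests were not run. No paired analysis was possible because the labels give animal numbers and no replicate numbers shared between genotypes. Weak genes such as Cybb and C4a are limited by their signal over background.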

Other observations

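Over all tested genes, those described above included, 15 had a log2 difference over 0.5 in size, 6 higher and 9 lower in the double knockout. Prl, the gene of the pituitary hormone prolactin, did not pass (-2.03, limma adjusted p = 0.820), and its signal was below background in each of the 4 double knockouts, so that the difference has no exact size. It measured 54.93, 217.89, 108.64 and 8.44 in the Trem2 knockout and 19.07, 20.32, 10.58 and 8.15 in the double knockout, so that Trem2 knockout replicate 4 lay with the double knockouts. Nmb, the gene of the peptide neuromedin B, was singled out after its values were seen. It measured 36.62, 75.35, 115.16 and 76.98 against 119.47, 195.42, 108.66 and 164.37, with overlap (1.01, limma adjusted p = 0.949). Plcb2, a phospholipase C gene, had 0.56 without overlap, with all Trem2 knockout animals below background. Hgf, a growth factor gene, had 0.30, also without overlap (limma adjusted p = 0.800).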
